A study of Mus musculus with 6 samples.

Results

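Serpins and apolipoproteins are 2 protein families with many members that the liver secretes into the blood. The genes were taken by symbol, as Serpin followed by a clade letter from a to i and a number, or Apo followed by a, b, c, e, f, h or m. Of 68 such symbols with a named probe on the array, 41 read above an intensity of 129 on at least 1 of 6 arrays and are described here, 13 apolipoproteins and 28 serpins. They stand among 19057 named genes, of which 10140 passed the same level. An intensity is the brightness of a probe, and the level of 129 is close to the upper edge of the background. Just above it lay Serpinb6c with a highest intensity of 129.4, Serpine3 with 131.0 and Serpinb9d with 131.8. Just below lay Serpina1f with 128.9, Serpinb10 with 127.9 and Serpinb2 with 127.7.

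All 13 apolipoproteins passed, while 27 serpins did not. The clade B serpins, which mostly stay inside cells, gave 6 members of 26 symbols. Of the 41 genes, 30 were above the detection level on all 6 arrays, 13 apolipoproteins and 17 serpins. Another 7 serpins passed on a single array and entered no test between genotypes. Serpini2, a serpin of pancreatic acinar cells, did not pass on any array. Serpina3k and Serpina3m had no probe of that name and were not analysed here.

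Each array held pooled liver RNA of FVB mice aged 10 weeks, and 1 array was made per group. LIXs mice carry a transgene that doxycycline (Dox) in the chow turns on. It encodes Xbp1s, the product of spliced Xbp1 mRNA and the form of that transcription factor that drives its target genes. The groups were LIXs and wild type (WT) after 24 h of Dox, LIXs and WT after 48 h of Dox, and 2 WT groups without labelled Dox, refed for 2 h or fasted for 24 h. The 4 Dox groups, WT included, went without food for 6 h. The sources used here do not give the transgene's promoter, the number of animals per pool or their sex. The study asked how Xbp1s changes gene expression in liver.

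A serpin works as a bait: a protease cuts its exposed loop, and the serpin then changes shape and holds the enzyme. Hepatocytes make the serpins that restrain clotting, fibrin breakdown, complement and neutrophil elastase, and some family members carry hormones or chaperone collagen instead. Apolipoproteins wrap the lipid droplets that travel in plasma. They give the particles their structure, switch lipoprotein lipase on or off and serve as ligands for uptake by receptors. Apolipoproteins and the secreted serpins pass through the endoplasmic reticulum (ER), whose capacity Xbp1s is known to raise.

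Xbp1 itself did not separate the genotypes. At 24 h and 48 h it read 4537 and 4350 on the arrays labelled LIXs and 4259 and 5210 on those labelled WT, with 5120 and 4457 on the refed and fasted arrays. The averaged log2 difference was -0.09 ± 0.22 (SE, limma adjusted p = 0.836). The sources used here do not say where its single probe lies relative to the transgene. Of 18 tested genes for ER chaperones and folding enzymes, which Xbp1s is known to raise, 5 passed the test and all 5 were lower on the arrays labelled LIXs, with a median difference of -0.63. The arrays are therefore named by their labels, and LIXs and WT arrays stand for the arrays so labelled. All 10 hepatocyte markers with a named probe were above the detection level on at least 1 array, and 9 entered the test. Summed intensities over the 10 lay between 145311 and 168188 on the 6 arrays.

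For each gene, limma averaged the LIXs minus WT difference of the 2 time points. Genes above the detection level on at least 2 of the 4 Dox arrays entered, 34 of the 41 members and 7652 genes in all. Differences are on a log2 scale of background-corrected intensities, so a fold change of a dim gene is larger than the ratio of its raw intensities. The SE comes mostly from the spread of all genes together, since 1 residual degree of freedom is left. Arrays hold pools, so p-values hold no spread between animals. In these bulk samples, fewer cells of a type and less RNA per cell cannot be told apart.

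On average the 34 genes read slightly higher on the arrays labelled LIXs, and 3 serpins passed the test. Of the 34, 31 had an averaged log2 difference above 0, against 50.8% of all 7652 genes. The median of the 34 was 0.24, against 0.01 over all genes. Serpins had a median of 0.28 and apolipoproteins of 0.20. The 3 genes past an adjusted p of 0.05 were Serpina6, Serpina9 and Serpinc1, all higher, and none was lower. Serpina9 was above the detection level on the LIXs arrays alone and entered the test through them, so its call is no independent support, which leaves Serpina6 and Serpinc1 among the 31 members detected on all 4 Dox arrays. Over all genes tested, 4.33% were called higher and 4.47% lower. Before adjustment, 8 of the 34 members had a limma p under 0.05, against 2235 of all 7652 genes. No member passed without the time term or without the filter on dim probes. All 9 tested hepatocyte markers were above 0, with a median of 0.22. Of 11 sinusoidal endothelial markers 10 were above 0, with a median of 0.43. No gene of either list passed the test. Macrophage markers had a median of 0.27, stellate cell markers of 0.18, 3 cholangiocyte markers of -0.65 and 3 erythroid markers of 0.56, none past the test. Of 3 neutrophil markers 1, Mpo, was lower. Mpo entered the test through the WT arrays alone, so its call is no independent support. Of 18 pancreatic acinar genes 7 were higher, with a median of 1.65. The part of other cell types in the members' differences was not tested.

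Both arrays labelled LIXs lay above both labelled WT for 22 of the 34 genes, against 29.1% of all genes. Among the 31 members detected on all 4 Dox arrays this held for 20, against 29.9% of the genes so detected. Serpina1b was the 1 gene of the 34 with both LIXs values below both WT values, against 26.9% of all genes. The other 11 overlapped. The 34 genes came from the same pools and arrays, so they are not 34 independent observations.

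**Figure D1:**
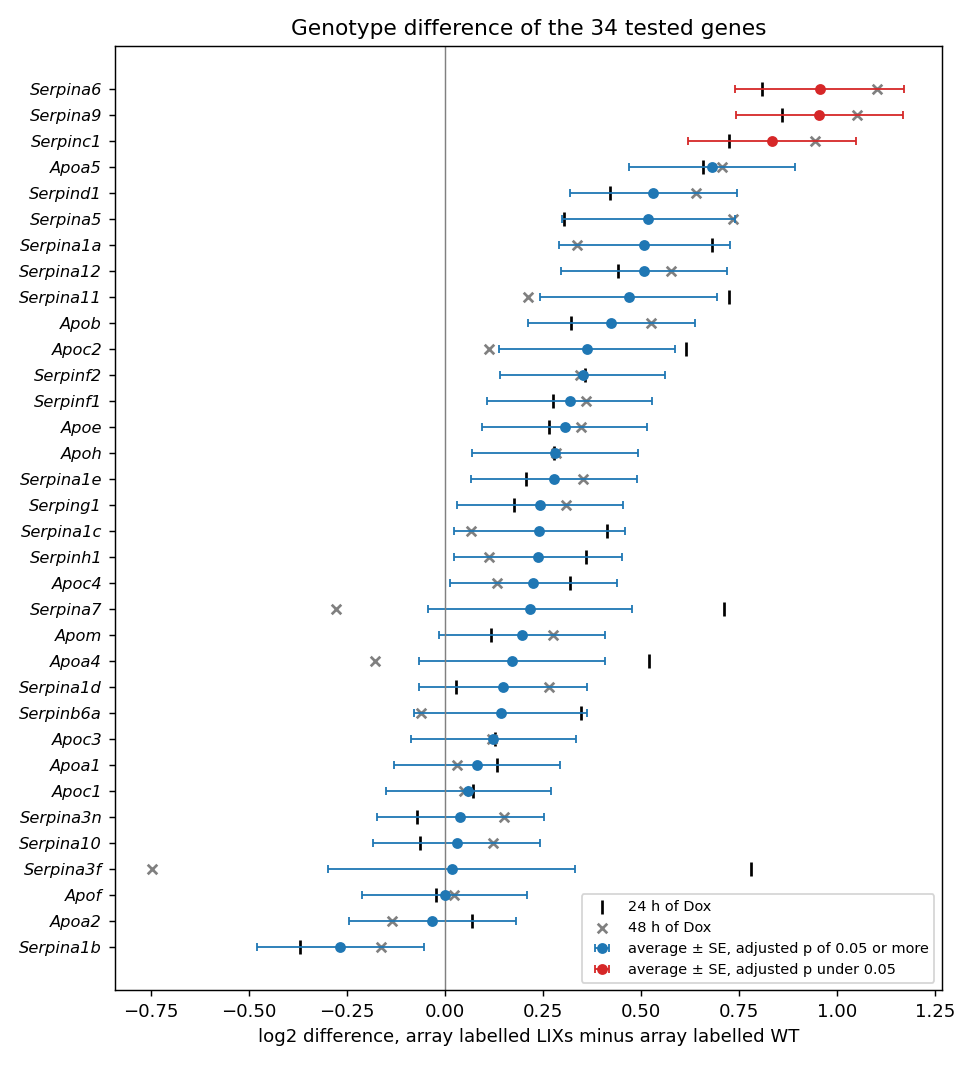
Log2 difference between arrays labelled LIXs and WT (x axis) for each of the 34 tested genes, as the average of both times with its SE (points with bars, red where the adjusted p is under 0.05), at 24 h (vertical ticks) and at 48 h (crosses). The averages run from -0.27 for Serpina1b to 0.96 for Serpina6, and 31 lie above 0.

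Among the apolipoproteins, none of 13 passed the test. Apoa5, which activates lipoprotein lipase at the vessel wall, came nearest. It read 897 and 925 on the LIXs arrays at 24 h and 48 h, 603 and 603 on the WT Dox arrays, 1349 on the refed and 1666 on the fasted array. Both LIXs values were above both WT values, and the feeding controls read higher than all 4 Dox arrays. The averaged log2 difference was 0.68 ± 0.21 (SE, 95% interval 0.22 to 1.15), with 0.66 at 24 h and 0.71 at 48 h, and an adjusted p of 0.067 in limma.

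The promoter of Apoa5 is shown because it holds the core CCACGT of an XBP1 site, found on both strands as the overlapping palindrome in the first block of capitals, CCACGTGG. The second block is a TATA box, TATAAA. The window covers 250 bases before to 50 after the first of 2 start sites at chr9:46268358-46268657 on the plus strand of GRCm38.p6, from RefSeq. The palindrome begins at position -83 from the start site.
Apoa5: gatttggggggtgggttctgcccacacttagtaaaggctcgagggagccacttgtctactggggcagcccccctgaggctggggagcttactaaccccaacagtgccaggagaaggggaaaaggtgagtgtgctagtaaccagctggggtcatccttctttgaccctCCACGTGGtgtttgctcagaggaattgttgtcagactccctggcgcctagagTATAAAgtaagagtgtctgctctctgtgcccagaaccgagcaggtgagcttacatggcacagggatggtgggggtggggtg
The match describes the letters of this window and not a bound site.

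Apob, the single large protein around which each very low density lipoprotein (VLDL) particle is built, had intensities of 4906 and 5170.0 on the LIXs arrays at 24 h and 48 h, 3944 and 3618 on the WT Dox arrays. The refed array read 6338 and the fasted array 4312. The LIXs and WT values did not overlap, and the difference of 0.42 ± 0.21 did not pass the test (adjusted p = 0.215, limma). Mttp, which loads lipid onto Apob, had a difference of 0.58 with an adjusted p of 0.104.

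The proteins of high density lipoprotein (HDL) had small differences on their brightest probes. Apoa1, its main structural protein and the activator of the enzyme that esterifies cholesterol on HDL, read 41578 and 41578 on the LIXs arrays at 24 h and 48 h, 37965 and 40701 on the WT Dox arrays. The refed and fasted arrays read 43615 and 33809, and its averaged difference was 0.08 ± 0.21. Apoa2, the second HDL protein, read 43615 and 35937 on the LIXs arrays at 24 h and 48 h, 41578 and 39441 on the WT Dox arrays, and 35225 and 35225 on the refed and fasted arrays. The genotypes overlapped, with a difference of -0.03 ± 0.21. On a second, dimmer Apoa2 probe they did not overlap. It read 1354 and 1000 on the LIXs arrays at 24 h and 48 h and 923 and 765 on the WT Dox arrays, an averaged difference of 0.52. Apom, which carries the lipid mediator sphingosine 1-phosphate on HDL, read 17009.7 and 15950.5 on the LIXs arrays at 24 h and 48 h, 15696 and 13193 on the WT Dox arrays, with 15780.1 and 19880.2 on the refed and fasted arrays. Its LIXs values lay just above its WT values, at a difference of 0.20 ± 0.21. A second, dimmer Apom probe gave 0.38.

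The C apolipoproteins tune lipoprotein lipase. Apoc2, the required cofactor of the enzyme, read 778 and 652 on the LIXs arrays at 24 h and 48 h, 541 and 611 on the WT Dox arrays, with 938 and 926 on the refed and fasted arrays. The LIXs array was ahead mainly at 24 h, by 0.61 against 0.11 at 48 h, and the average was 0.36 ± 0.22. Apoc3, an inhibitor of the enzyme, read 47612 and 45154 on the LIXs arrays at 24 h and 48 h, 43615 and 41578 on the WT Dox arrays, with 42539 on the refed and only 25113 on the fasted array. Its difference was 0.12 ± 0.21 and nearly the same at both times. Apoc1, another inhibitor of lipolysis and uptake, read 30029 and 27672 on the LIXs arrays at 24 h and 48 h, 28606 and 26758 on the WT Dox arrays, with 24145 and 36845 on the refed and fasted arrays. Its genotypes overlapped, at 0.06 ± 0.21. Apoc4, which lies beside Apoc2 in one gene cluster, had a difference of 0.22 and Dox intensities between 17009.7 and 21801.

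Apoe, the ligand by which particle remnants are taken up through the LDL receptor family, read 13679.7 and 11623 on the LIXs arrays at 24 h and 48 h, 11405 and 9163 on the WT Dox arrays. The refed array read 10123 and the fasted array 6809, the lowest of the 6. The difference of 0.31 ± 0.21 did not pass (adjusted p = 0.370, limma). Apoh, a plasma glycoprotein that binds anionic phospholipids, read 4111 and 4111 on the LIXs arrays at 24 h and 48 h, 3407 and 3393 on the WT Dox arrays, with 3649 on the refed and 2082 on the fasted array. Its differences were 0.28 at 24 h and 0.28 at 48 h. Apof, known in human plasma as an inhibitor of lipid transfer, was the steadiest member. Its 6 intensities ran from 11697 to 13498, a ratio of 1.15, and its genotype difference was 0.00 ± 0.21.

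**Figure D2:**
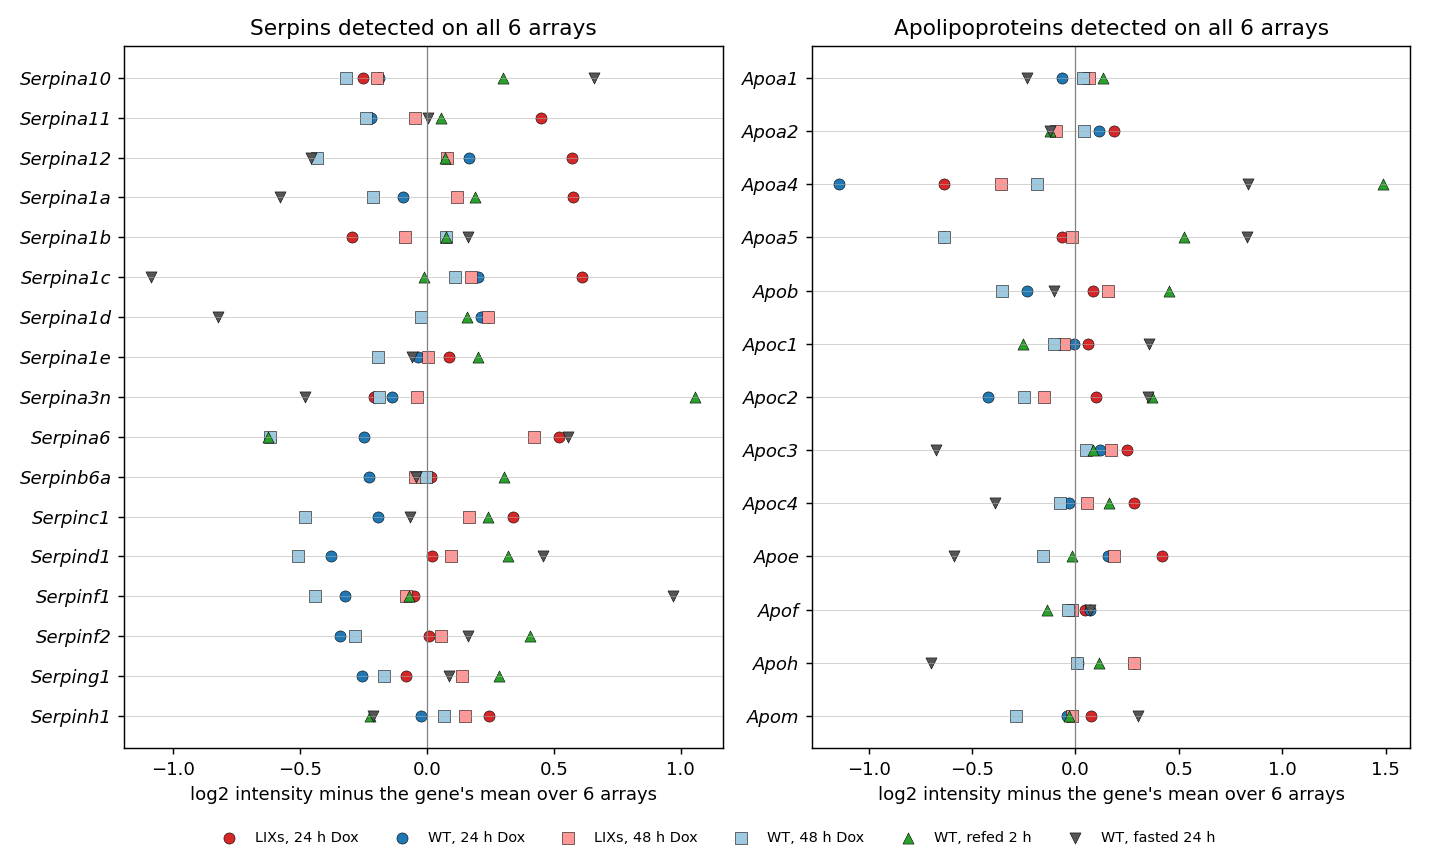
Log2 intensity of each of the 30 genes detected on all 6 arrays, minus that gene's mean over the arrays (x axis), with 1 point per array, for 17 serpins (left) and 13 apolipoproteins (right). The refed and fasted arrays (triangles) hold the points farthest from the gene's mean for Apoa4 and Serpina3n (refed) and for Serpina1c (fasted), while the LIXs arrays (red and pink) lie right of the WT Dox arrays (blue) for Serpina6, Serpinc1 and Apoa5.

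The highest averaged difference among the serpins was in Serpina6, the corticosteroid-binding globulin that carries glucocorticoids in blood. It read 2513 and 2347 on the LIXs arrays at 24 h and 48 h, 1474 and 1142 on the WT Dox arrays, 1134 on the refed and 2577 on the fasted array. Both LIXs arrays were near the fasted value, and the WT Dox array at 48 h was near the refed one. The averaged difference was 0.96 ± 0.22 (SE, 1.94-fold, 95% interval 0.48 to 1.43, limma adjusted p = 0.032), with 0.81 at 24 h and 1.10 at 48 h. Without the time term the adjusted p was 0.104 in limma. Each fit that left out 1 array also dropped that term. The difference was then 0.90 without LIXs at 24 h and 1.01 without LIXs at 48 h. It was 0.76 without WT at 48 h and 1.15 without WT at 24 h. Serpina7, the thyroxine-binding globulin, had no such pattern. It read 195 and 199.8 on the LIXs arrays at 24 h and 48 h, 155 and 223 on the WT Dox arrays, and its differences were 0.71 at 24 h and -0.28 at 48 h.

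Serpinc1 encodes antithrombin, the main plasma inhibitor of thrombin and factor Xa. It read 423 and 375 on the LIXs arrays at 24 h and 48 h, 293 and 239 on the WT Dox arrays, with 395 and 319 on the refed and fasted arrays. Both LIXs values exceeded both WT values, and the averaged difference was 0.83 ± 0.21 (SE, 1.78-fold, limma adjusted p = 0.039). A second probe for the gene read 335 and 284 on the LIXs arrays at 24 h and 48 h, 288 and 254 on the WT Dox arrays, a difference of 0.28. With the mean of both probes the difference was 0.56 and the adjusted p 0.099. On the brightest probe, the adjusted p without the time term was 0.119 in limma. Leaving out 1 array as well gave differences from 0.61 without WT at 48 h to 1.06 without WT at 24 h.

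The promoter of Serpinc1 is shown as that of the 1 gene past the test with a RefSeq promoter entry here, at chr1:160978333-160978632 on the plus strand of GRCm38.p6. The capitals mark the C/EBP pattern TTGCNNAA, 4 bases after the start site. None of the other motifs searched was found in it.
Serpinc1: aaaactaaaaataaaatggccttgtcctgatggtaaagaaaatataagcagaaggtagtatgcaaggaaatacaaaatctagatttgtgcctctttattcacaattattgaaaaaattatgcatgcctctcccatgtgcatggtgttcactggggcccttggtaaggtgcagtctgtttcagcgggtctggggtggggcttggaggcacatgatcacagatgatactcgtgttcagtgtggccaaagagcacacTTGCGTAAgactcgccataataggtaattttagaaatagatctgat
Its capitals describe letters only.

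Serpina9, known in human as a serpin of germinal centre B cells, was at the edge of detection. It read 141 and 159.7 on the LIXs arrays at 24 h and 48 h, 117 and 125 on the WT Dox arrays, 109.6 on the refed and 105 on the fasted array. Only the LIXs arrays were above the detection level. A gene that enters the test through the group in which it is high had to differ, so the fitted 0.96 ± 0.21 (limma adjusted p = 0.031) supports nothing by itself. The deposited intensities, with no background correction, put the level at least 1.16-fold higher. Without background correction the difference was 0.31 and the adjusted p 0.106. Without the time term the adjusted p was 0.104 in limma. The fits that left out 1 array also dropped that term, and gave differences from 0.71 to 1.20. Of 7 lymphocyte markers with a probe, 4 were not detected on any array, and none was detected on enough Dox arrays to be tested.

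The other inhibitors of clotting and fibrin breakdown did not pass. Serpind1, heparin cofactor II, which inhibits thrombin, read 1829.6 and 1930.2 on the LIXs arrays at 24 h and 48 h, 1389 and 1271 on the WT Dox arrays, with 2256 and 2478 on the refed and fasted arrays. Its groups did not overlap and the difference was 0.53 ± 0.21 (adjusted p = 0.130, limma). Serpinf2, the inhibitor of plasmin, read 7957 and 8216 on the LIXs arrays at 24 h and 48 h, 6229.7 and 6487 on the WT Dox arrays, with 10478 and 8839 on the refed and fasted arrays, and differed by 0.35 ± 0.21. Serpina10, which inhibits factor Xa with protein Z as its cofactor, had a difference near 0. It read 6584 and 6844 on the LIXs arrays at 24 h and 48 h, 6875 and 6296 on the WT Dox arrays, with 9668 and 12399.9 on the refed and fasted arrays, a difference of 0.03 ± 0.21. Serpina5, the protein C inhibitor, was dim, with Dox intensities from 126 to 154, 157 refed and 121 fasted, and a fitted difference of 0.52 (adjusted p = 0.149). The WT array at 48 h did not detect it.

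Serping1, the C1 inhibitor that restrains complement and plasma kallikrein, read 9793 and 11405 on the LIXs arrays at 24 h and 48 h, 8675 and 9228 on the WT Dox arrays, with 12622 and 11014 on the refed and fasted arrays. Its difference was 0.24 ± 0.21 with no overlap. Serpinf1, pigment epithelium-derived factor, which has lost protease inhibition, read 16539 and 16177 on the LIXs arrays at 24 h and 48 h, 13679.7 and 12622 on the WT Dox arrays and 16282 on the refed array. The fasted array stood apart at 33488. The genotype difference was 0.32 ± 0.21. Serpinh1, the collagen chaperone of the ER also called Hsp47, read 406 and 381 on the LIXs arrays at 24 h and 48 h, 337 and 359 on the WT Dox arrays, and 293 and 296 on the refed and fasted arrays. Its difference of 0.24 ± 0.21 had the opposite sign to the median of the ER chaperone list, which does not contain it.

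Serpina12, or vaspin, first described as an adipose tissue hormone, read 1428 and 1015 on the LIXs arrays at 24 h and 48 h, 1077 and 711 on the WT Dox arrays. The refed and fasted arrays read 1008 and 700.1, and the genotype difference was 0.51 ± 0.21 (adjusted p = 0.141, limma). On this probe both genotypes were lower at 48 h than at 24 h. A second probe, above the detection level on the WT array at 48 h alone, gave an averaged difference of -0.24 and read 117 at 24 h and 131 at 48 h in WT. The mean of both probes gave 0.13, and leaving out 1 array gave 0.17 to 0.84. Serpina11 showed its difference mainly at 24 h, with intensities of 1519 in the LIXs and 955 in the WT pool, against 1077 and 943 at 48 h. The averaged difference was 0.47 ± 0.23 (adjusted p = 0.195, limma). Serpinb6a, an intracellular protease inhibitor, ran from 290.2 to 419.7 over all arrays and differed by 0.14 ± 0.22.

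Alpha-1 antitrypsin, the inhibitor of neutrophil elastase, is encoded in the mouse by several near-identical Serpina1 copies, 5 of them with members here. Their proximal promoters are shown to make that likeness visible. Each window holds 80 bases on the minus strand of chromosome 12 in GRCm38.p6, from RefSeq, and is written 5′ to 3′ on that strand. The capitals mark GTTAAT, the half-site of the liver factor HNF1. Windows lie at chr12:103863593-103863672 (Serpina1a), chr12:103738168-103738247 (Serpina1b), chr12:103904930-103905009 (Serpina1c), chr12:103773602-103773681 (Serpina1d) and chr12:103956928-103957007 (Serpina1e).
Serpina1a: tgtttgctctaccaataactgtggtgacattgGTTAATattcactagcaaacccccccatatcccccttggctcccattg
Serpina1b: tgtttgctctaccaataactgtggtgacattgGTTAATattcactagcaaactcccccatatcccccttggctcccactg
Serpina1c: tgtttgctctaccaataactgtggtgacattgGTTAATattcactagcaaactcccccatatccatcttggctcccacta
Serpina1d: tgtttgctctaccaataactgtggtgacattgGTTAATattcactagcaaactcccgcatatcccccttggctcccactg
Serpina1e: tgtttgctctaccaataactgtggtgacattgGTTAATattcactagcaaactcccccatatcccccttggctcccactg
Serpina1b and Serpina1e had 0 differences over the window, and the most distant pair, Serpina1a and Serpina1c, had 5. Probes to such copies can bind transcripts of each other, and probe sequences were not used here, so a value named for one copy may hold signal of the others.

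The probes named for the 5 copies gave different values, and none passed the test. Serpina1a read 8113 and 5905 on the LIXs arrays at 24 h and 48 h, 5093 and 4695 on the WT Dox arrays, with 6201 refed and 3642 fasted. Its LIXs values were above its WT values, and the difference was 0.51 ± 0.22 (adjusted p = 0.150, limma). Serpina1c read 8287 and 6122 on the LIXs arrays at 24 h and 48 h, 6240.3 and 5849 on the WT Dox arrays, with 5379 refed and 2555 fasted. Its difference was 0.24 ± 0.22, with the gap mostly at 24 h.

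Serpina1d read 36088 and 36088 on the LIXs arrays at 24 h and 48 h, 35389 and 30029 on the WT Dox arrays, with 34110.4 refed and 17244 fasted, a difference of 0.15 ± 0.21. Serpina1e, known in mouse liver to be higher in males, read 236 and 223 on the LIXs arrays at 24 h and 48 h, 217 and 195 on the WT Dox arrays, with 255 refed and 213 fasted, and a difference of 0.28 ± 0.21. Serpina1b read 36845 and 42539 on the LIXs arrays at 24 h and 48 h, 47612 and 47612 on the WT Dox arrays, with 47612 refed and 50652 fasted, a difference of -0.27 ± 0.21. Its other 2 detected probes gave 0.14 and 0.10. The fasted value is the highest intensity on any array, and the sorted values of the deposited arrays nearly coincide, so the brightest probes share a few values. Serpina1b read exactly 47612 on 3 arrays.

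Serpina3n, a clade member related to human antichymotrypsin and an acute phase protein in the mouse, gave a genotype difference near 0. It read 9545 and 10729.5 on the LIXs arrays at 24 h and 48 h, 10033 and 9668 on the WT Dox arrays, a difference of 0.04 ± 0.21. Serpina3f was close to background, at 140.1 and 129 on the LIXs arrays at 24 h and 48 h, 119 and 154 on the WT Dox arrays, with 134 refed and 107 fasted, and its fitted difference was 0.78 at 24 h and -0.75 at 48 h. It was not detected on the WT array at 24 h or on the LIXs array at 48 h, and the deposited intensities give at least 1.08-fold higher and at least 1.19-fold lower.

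At each time there was 1 array per genotype, so no test was possible and genes were counted at 2-fold. At 24 h no member reached it, against 3.72% of all genes higher and 4.91% lower. The members' median was 0.32. Among the 32 members measured on both arrays the highest were Serpina6 at 0.81, Serpina11 at 0.73 and Serpinc1 at 0.72. The lowest were Serpina1b at -0.37, Serpina3n at -0.07 and Serpina10 at -0.06. At 48 h, Serpina6 was 2.15-fold higher. Serpina9 also passed 2-fold on the corrected scale, at 1.05, but was not detected on the WT array, and its deposited intensities give at least 1.23-fold. That compares with 1.59% of all genes higher and 2.47% lower. The median at 48 h was 0.24. On their brightest probes, the lowest of the 31 members measured on both arrays were Serpina7 at -0.28, Apoa4 at -0.18 and Serpina1b at -0.16. Dimmer Apoa4 probes gave 0.09 and 0.30 at 48 h. The other detected probes of Serpina1b gave 0.04 and 0.15 at 24 h, and 0.25 and 0.06 at 48 h.

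The 2 differences had the same sign in 26 of 34 members. The 8 with opposite signs on their brightest probes were Apoa2, Apoa4, Apof, Serpina10, Serpina3f, Serpina3n, Serpina7 and Serpinb6a, against 29.9% of all genes. Dimmer probes of Apoa2 and Apoa4 were positive at both times, while those of Apoc1 and Serpina12 had opposite signs. The array labelled LIXs at 24 h also stood apart in markers of another tissue. The summed intensity of 19 pancreatic acinar genes was 39015 there and between 13898 and 16652 on the other 5 arrays. Of these genes 17 were at least 2-fold higher at 24 h, with a median of 3.03, and none was at 48 h, with a median of 0.27. The serpins' median was 0.36 at 24 h and 0.31 at 48 h, and the apolipoproteins' was 0.26 and 0.12. The part of the acinar genes in the members' values was not tested. All 5 tested female-biased liver genes passed the averaged test as higher, with a median of 1.35, against 2 of 9 male-biased genes. The part of sex in the members' differences was not tested.

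**Figure D3:**
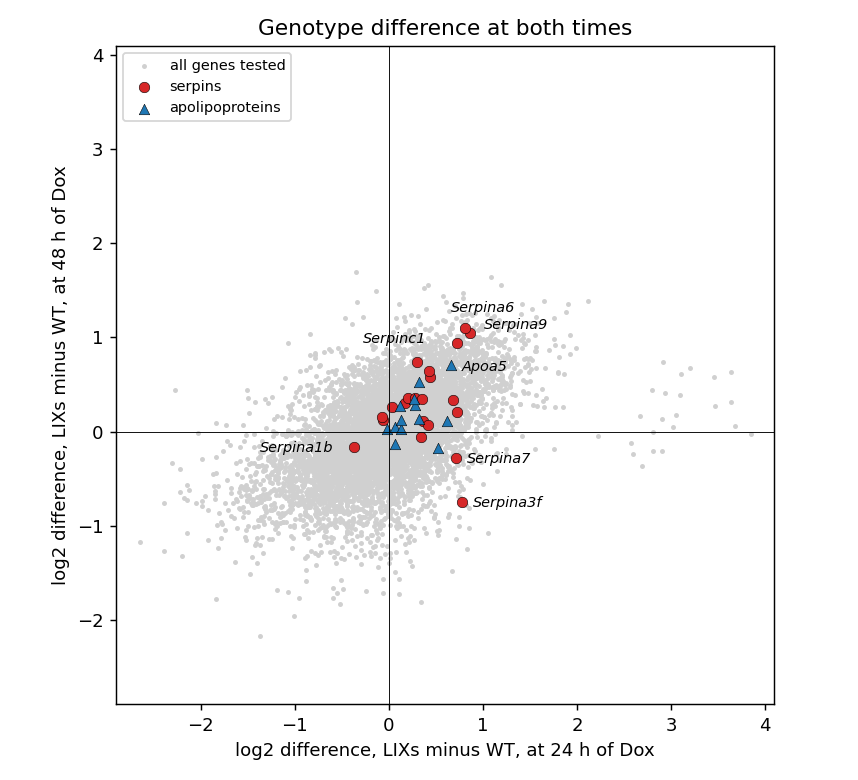
Log2 difference between arrays labelled LIXs and WT at 24 h of Dox (x axis) against 48 h (y axis), 1 point per gene tested, with serpins as red circles and apolipoproteins as blue triangles. Serpina6, Serpina9, Serpinc1 and Apoa5 are positive at both times, and Serpina7 is positive at 24 h and negative at 48 h. Serpina3f and Serpina9 were not detected on 1 side of each difference.

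The genes that work with these proteins were counted in the same fit, which called 4.33% of all genes higher and 4.47% lower. No gene passed without the time term or without the filter on dim probes. Of 30 tested genes for VLDL assembly, lipoprotein remodelling and receptors, 1 was higher and none lower, with a median of 0.26. The median was -0.06 at 24 h and 0.35 at 48 h. The gene was Saa4, a constitutive apolipoprotein of HDL, at 0.99 ± 0.25 (limma adjusted p = 0.039). Its difference was 1.42 at 24 h and 0.55 at 48 h. Angptl4, an inhibitor of lipoprotein lipase, had a difference of 0.69 and an adjusted p of 0.067, and Lrp1, the receptor that clears remnants and serpin complexes, had 0.77 and 0.058.

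Among 25 target proteases and cofactors of serpins, 3 were higher and 2 lower, against 4.33% and 4.47% of all genes, with a median of 0.26. Klkb1, plasma kallikrein, a target of Serping1, was higher by 1.04 ± 0.21 (limma adjusted p = 0.029). Hpn, the membrane protease hepsin, was higher by 0.94 ± 0.22 (adjusted p = 0.033). Proz, the cofactor of Serpina10, was higher by 0.81 ± 0.21 (adjusted p = 0.042), while Serpina10 itself read 0.03. The targets of antithrombin were not past the test, with 0.32 for F2, prothrombin, and 0.19 for F10. The lower genes were Plaur, the urokinase receptor, at -0.90, and Mpo, neutrophil myeloperoxidase, at -1.07, both dim. Mpo was not detected on the LIXs arrays and entered the test through the WT arrays, so it had to differ.

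Of 22 transcription factors known to act on these genes, Srebf1 alone passed, the factor behind fatty acid synthesis, higher by 1.17 ± 0.21 (limma adjusted p = 0.025). Hnf4a, which acts on many apolipoprotein promoters, had 0.71 with an adjusted p of 0.063. Creb3l3, an ER-bound factor that acts on Apoa4 and Apoa5 in the mouse, had 0.54 with an adjusted p of 0.123. The median of the list was 0.27, and over all genes 4.33% were called higher.

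Between the feeding controls several members differed by more than between genotypes, again with 1 array on each side and no test. Of 40 members above the detection level on the refed or the fasted array, 5 passed 2-fold higher and 4 passed 2-fold lower in the refed pool on the corrected scale, all serpins. Over all genes 12.3% were higher and 11.9% lower. Serpinb12, Serpinb9c and Serpina3j met the rule through the 1 array on which they are high, so they had to differ. Among the 30 members measured on both arrays, 2 were higher and 2 lower. The members' median was 0.31, with -0.09 over all genes.

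Serpina7 differed most. It read 391 on the refed array and 126 on the fasted one, where it was not detected, and its deposited intensities put it at least 3.02-fold higher. The log2 difference was 3.15 after background correction with an offset of 16 and 2.30 with an offset of 50. The 4 Dox arrays lay between, from 155 to 223. Its promoter is shown for that reason, at chrX:139085170-139085469 on the minus strand of GRCm38.p6, from RefSeq. Of 2 start sites listed, the window is that of the downstream one. The capitals mark, in order, the HNF1 half-site, the C/EBP pattern and the TATA box.
Serpina7: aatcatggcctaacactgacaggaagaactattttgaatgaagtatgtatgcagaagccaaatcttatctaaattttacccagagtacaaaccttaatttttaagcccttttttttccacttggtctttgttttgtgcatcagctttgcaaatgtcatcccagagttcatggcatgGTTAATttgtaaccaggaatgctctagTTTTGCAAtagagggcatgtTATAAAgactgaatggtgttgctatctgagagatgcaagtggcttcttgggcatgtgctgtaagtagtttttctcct
The 3 motifs lie within the last 80 bases before that start site. TATAAA begins at -27 from it and at -10 from the other start site.

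Serpina3n followed with 22955 on the refed and 7897 on the fasted array, a log2 difference of 1.55. Acute phase genes outside these families had a median of 1.21 in this comparison, with 11 of 20 at least 2-fold higher, and 5 neutrophil markers had a median of 2.15. Their part in the refed values was not tested. Serpina1c was 2.15-fold higher, at 5379 against 2555. Serpina5 and Serpinb12, an intracellular serpin, were not detected on the fasted array, and their deposited intensities give at least 1.21-fold and at least 1.07-fold higher. Serpinb12 read 138 on the refed array and at most 110.4 on the others.

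Lower in the refed pool were Serpina6, at 1134 against 2577 or -1.25 on the log2 scale, and Serpinf1, at 16282 against 33488 or -1.04. Serpinb9c read 172 on the fasted array alone, against 111 refed. Serpina3j read 145 fasted and 111 refed. Both had only the fasted array above the detection level, and give at least 1.33-fold and at least 1.12-fold lower in the refed pool. No apolipoprotein reached 2-fold on its brightest probe, and the extremes were Apoh at 0.84 and Apoc1 at -0.61.

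**Figure D4:**
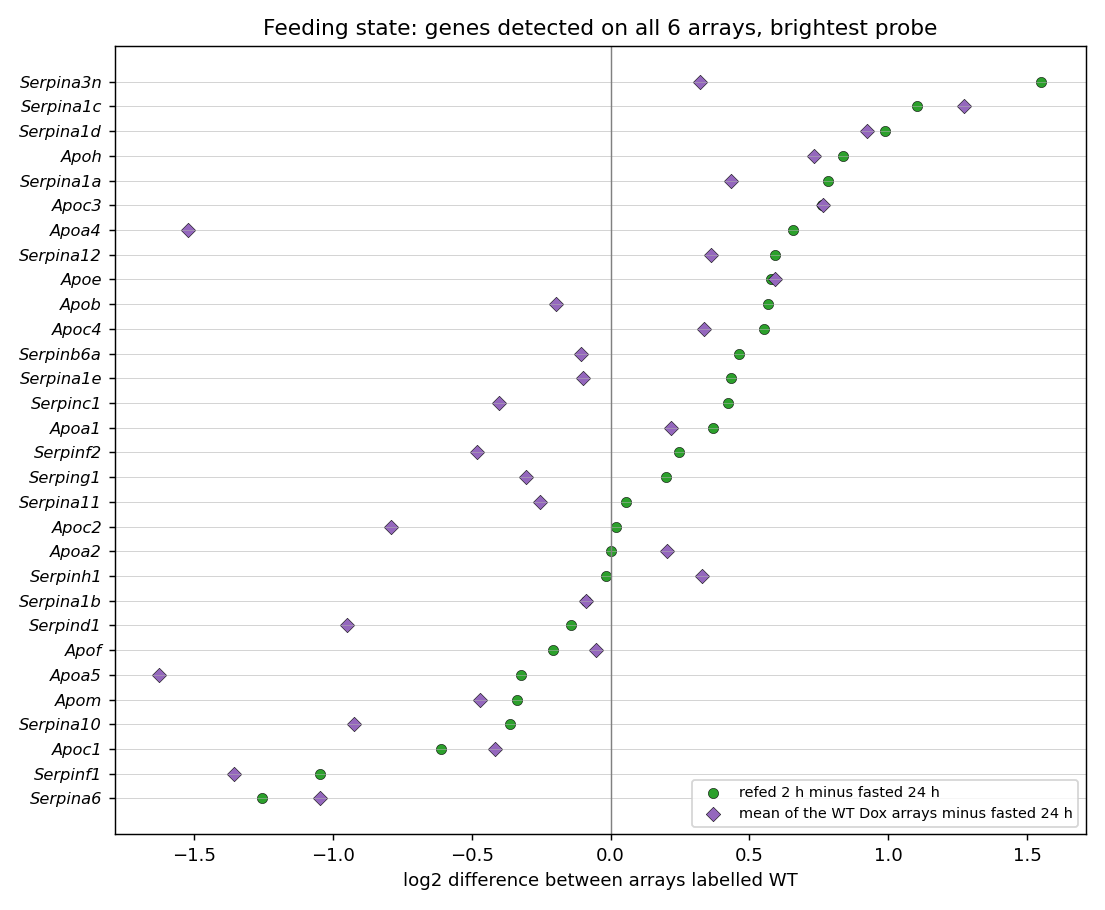
Log2 difference between arrays labelled WT (x axis) for the 30 genes detected on all 6 arrays, as refed minus fasted (green circles) and as the mean of both WT Dox arrays minus fasted (purple diamonds). Serpina3n is highest and Serpina6 lowest for refed minus fasted, and the Dox arrays fall far below the refed array for Apoa4 and Apoa5.

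For 12 members the array carried more than 1 detected probe, and the feeding comparison depended on the probe. Apoa4, a protein of intestinal and hepatic particles that is known to respond to feeding, had intensities on its brightest probe of 4363 and 5277 on the LIXs arrays at 24 h and 48 h, 3071 and 5955 on the WT Dox arrays, with 19019 refed and 12095 fasted. The refed minus fasted difference was 0.66 on that probe, against 1.80 and 2.01 on the others. Apoa2 gave 0.00 on its brightest probe and 1.66 on a dimmer one, which read 782 refed and 311 fasted. Apoc1 gave -0.61 and 0.40, and Apom gave -0.33 and 0.51. In these 2 genes the sign turned with the probe.

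Among the 10 members with a second probe detected on every array compared, the median gap between probes was 0.78 for refed minus fasted and 6 had the same sign on both. Over 1580 genes of the same kind the gap was 0.57 and 55.4% had the same sign. For the averaged genotype difference the gap was 0.21 in the members and 0.18 over 1888 genes, of which 81.0% had the same sign. The cause of the larger gaps in the feeding comparison was not tested. Serpinf2 had 3 detected probes, whose genotype differences were 0.35, 0.58 and 0.58. Its feeding differences were 0.25, 1.16 and 0.55.

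**Figure D5:**
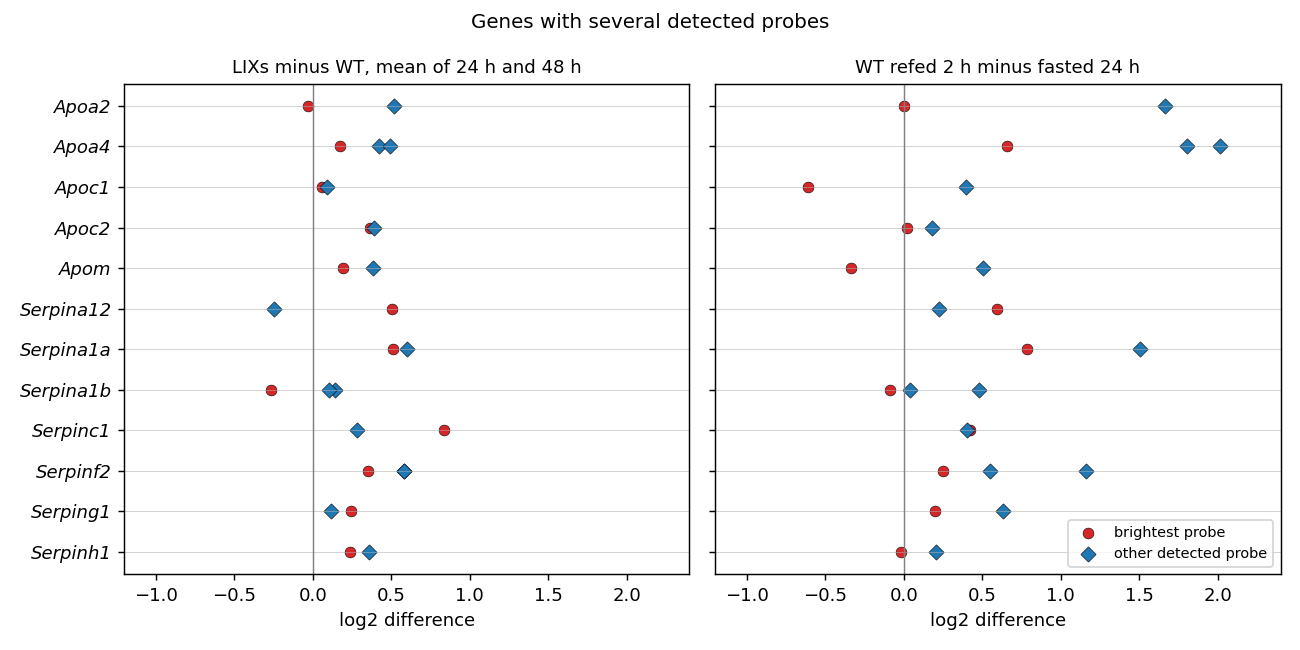
Log2 difference (x axes) on the brightest probe (red circles) and on other detected probes (blue diamonds) of 12 genes, for LIXs minus WT averaged over both times (left) and for WT refed minus fasted (right). The probes of Apoa2, Apoa4 and Apoc1 lie farther apart on the right than on the left.

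Brighter probes differed less between arrays. Of the 50 brightest probes on the array, 6 were the probes by which members are given here, and of the brightest 500, 19 were. The median absolute difference at 24 h was 0.13 over the brightest 50 probes, 0.27 over the brightest 500 and 0.36 over the other detected probes. A small difference in Apoa1, Apoa2, Apoc1, Apoc3, Serpina1b or Serpina1d, the genes of those 6 probes, is therefore set beside a scale on which all of the brightest probes differed little.

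From 24 h to 48 h of Dox in WT, 2 of 33 members passed 2-fold on the corrected scale, against 2.45% of all genes higher and 1.3% lower. Serpina7 was 2.09-fold higher at 48 h, and Serpina3f, not detected at 24 h, was at least 1.19-fold higher by its deposited intensities. Apoa4 followed at 0.98, from 3071 to 5955, and Serpina12 was lowest at -0.67. Between the LIXs arrays Serpina7 and Apoa4 gave 0.07 and 0.28, and no member reached 2-fold, against 0.5% of all genes higher and 0.825% lower. The genotype differences and these differences in time share arrays.

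The mean of both WT Dox arrays was also set against the feeding controls. Dox, chow and the length of the fast differ together there and cannot be told apart. Against the fasted array, 2 of 36 members passed 2-fold higher and 6 lower on the corrected scale, with 13.3% and 14.8% over all genes. Among the 30 measured on every array, 1 was higher and 4 lower. The higher one was Serpina1c at 1.27. Serpina7, not detected on the fasted array, was at least 1.44-fold higher by its deposited intensities. The 4 lower were Apoa5 at -1.63, Apoa4 at -1.52, Serpinf1 at -1.36 and Serpina6 at -1.05. Serpinb9c and Serpina3j also passed as lower, but both met the rule through the fasted array alone, so they had to differ. Against the refed array, 6 of 37 members passed 2-fold lower and none higher, with 5.28% and 5.14% over all genes. The 4 of them measured on every array were Apoa4 at -2.18, Serpina7 at -1.73, Apoa5 at -1.30 and Serpina3n at -1.23. The rest, Serpinb12 and Serpinb1b, met the rule through the refed array alone, so they had to differ. Their deposited intensities give at least 1.07-fold and at least 1.04-fold lower. Of the 4 WT arrays, the refed one was the highest in 14 of 30 members, against 21.5% of all genes, and the fasted one in 8, against 37.0%.

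Promoters were searched in the RefSeq table of GRCm38.p6, which held 44 windows for 34 of the 41 members. Serpina6, Serpina9, Serpina10, Serping1, Apoc1, Apoc3 and Apof had no entry. The XBP1 core CCACGT, on either strand, was in 3 of the 34 genes, Apoa5, Apoc2 and Serpinh1. By window it was in 4 of 44 (9.09%), against 8.31% of all 32851 windows. The averaged genotype differences of these 3 were 0.68, 0.36 and 0.24, and none had passed the test.

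The HNF1 half-site GTTAAT was in 8 genes, which were the 5 Serpina1 copies, Serpina7, Apoc2 and Apoe. By window it was in 9 of 44 (20.5%), against 7.10% of all windows. It was chosen after a longer form of the site had matched none. The C/EBP pattern TTGCNNAA was in 12 genes and 14 of 44 windows (31.8%), against 10.8% of all windows. The HNF4 pattern CAAAGTNCA was in Apoa4 and Serpind1, 2 of 44 windows (4.55%), against 1.41% of all. Both strands were read for each of these. The letters TATAAA of a TATA box, read on the gene's strand alone, were in 6 genes and 9 of 44 windows (20.5%), against 8.32% of all. In the windows shown they began at -31 in Apoa5 and -27 in Serpina7. In Apob, Apoe, Apoa2 and Serpinb12 they began between -220 and -60, and letters alone do not make a TATA box. The 5 Serpina1 copies share their sequence, so they count as near copies of 1 promoter.

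Serpins found on a single array add little. Serpinb1b and Serpinb12 passed the level on the refed array, as did Serpinb6c and Serpine3, and Serpina3j, Serpinb9c and Serpinb9d passed on the fasted array. Their highest intensities ran from 129.4 in Serpinb6c to 171.8 in Serpinb9c.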

How the data were processed

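The authors deposited a table of linear intensities for 45281 probes on 6 Illumina arrays, 1 pooled liver sample each. Per the submitters' processing notes the software was GenomeStudio. The sources used here do not give its version or the normalization. Sorted values agreed between arrays within 0.0199 (log2), so the deposited intensities were taken as normalized between arrays, with the background still in them. Another table, of 6 signal and 6 detection p columns, was not used, since its column names match no sample.

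Background was modelled from the mode of the intensities (109, SD 7.67) with limma's normexp, an offset of 16, quantile normalization and log2, in limma 3.58.1 and R 4.3.3. The detection level, 129, leaves a share of 0.01 of the modelled background above it. These steps replaced a planned use of control probes and detection p-values. Of the probes, 34885 had 1 gene name, 18 several and 10378 none, and each gene is given by its brightest probe.

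The 4 Dox arrays were fitted with lmFit and eBayes, with genotype and time as terms (prior degrees of freedom 9.69, prior SD 0.222) and Benjamini-Hochberg adjustment over 7652 genes at 0.05. Single pairs of arrays had no test and were counted at 2-fold. Where the dimmer array did not detect a gene, a lower bound is given from the deposited intensities with no background correction, the bright intensity over the detection level, since a corrected bound moves with the offset. These bounds were added after seeing the data. The script was tested on 5 runs of simulated data. It recovered 52.8% of 2-fold and 98.4% of 4-fold changes, and 9.04% of its calls were false at the threshold of 0.05. Precision is limited by the number of arrays, 1 per group.

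Alternatives were no background correction, an offset of 50, no quantile step, other detection levels, the mean of detected probes, no time term and leaving out each array. The fits that left out an array had no time term. Values are named for genes past the test, at 2-fold, at the 3 highest or lowest differences, or listed by role. The members and all lists were chosen with earlier results of these data known.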

Additional observations from a re-analysis of the deposited data

Results flagged for a closer look

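Serpina3f was singled out because its fitted genotype difference had opposite signs at the 2 times. At 24 h its intensity was 140.1 in the LIXs pool and 119 in the WT pool. At 48 h it was 129 and 154. The log2 difference after background correction was 0.78 at 24 h and -0.75 at 48 h. The dimmer array was below the detection level at each time, so these sizes are not measured on both sides. The deposited intensities give at least 1.08-fold higher at 24 h and at least 1.19-fold lower at 48 h. With 1 array per group the change between times was not tested.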

How the results depend on the processing

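No paired analysis was possible because each group holds 1 array, so replicate numbers pair nothing beyond the time on Dox, which is a term of the fit. The members' median averaged difference kept its sign throughout, from 0.21 to 0.28 under the processing alternatives and from 0.21 to 0.31 when 1 array was left out. The calls did not. Of 3 members and 673 genes past the test, 8 and 1670 passed without background correction, 6 and 1265 with a doubled detection level, and 1281 genes with an offset of 50. None passed without the filter on dim probes, with a permissive detection level or without the time term, where 9, 8 and 5 members and 2918, 2233 and 1810 genes had an unadjusted p under 0.05 in limma. Leaving out 1 array left 0 to 1 members and 0 to 287 genes, with 0 genes without LIXs at 24 h. A lone array was then assumed to vary like the others.

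Counts at 2-fold fell without background correction, with an offset of 50 and with a doubled level, since each compresses or removes dim genes. For refed against fasted, 9 members became 5 under all of them, and 2142 genes became 255, 702 and 554. At 48 h, 2 members became 1, and 329 genes 42, 103 and 160. Between WT times, 2 members became 0, and 303 genes 56, 121 and 149, and between LIXs times 106 genes became 28, 42 and 42. At 24 h, 694 genes became 255 and 404 under the first pair.

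Signs of the averaged difference turned for 8 genes, all with an average near 0 or with opposite signs at the 2 times. Apoa2 gave 0.24 with the mean of its probes. Leaving out 1 array gave -0.17 to 0.11 for Apoa2 (0.0055 without WT at 24 h), -0.32 to 0.66 for Apoa4, -0.055 to 0.053 for Apof (0.031 without LIXs at 48 h) and -0.035 to 0.094 for Serpina10. It gave -0.56 to 0.59 for Serpina3f (-0.17 without LIXs at 24 h), -0.046 to 0.12 for Serpina3n, -0.31 to 0.75 for Serpina7 and -0.017 to 0.30 for Serpinb6a. Serpina3f was -0.0077 without background correction and -0.016 with an offset of 50. With the mean of detected probes 9 differences between single arrays changed sign, among them Serpina12 at 48 h (-0.073) and Apom refed against fasted (0.085). The cause was not tested.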
